A study of Mus musculus with 10 samples.

Results

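The interferon receptor subunits are 5 genes, Ifnar1, Ifnar2, Ifngr1, Ifngr2 and Il10rb, taken by symbol from the deposited count table of 18603 genes, and all 5 had a row. The table comes from bulk RNA sequencing of 10 tumours grown under the skin of female Balb/c mice, which have an intact immune system, from RENCA cells, a kidney cancer line of the same strain. The treated tumours received SLR14, a stem-loop RNA with a 5′ triphosphate that binds the RNA sensor RIG-I, in lipid nanoparticles. The control tumours received PBS, so the RNA and its lipid carrier cannot be told apart. Treatment started at a tumour size of 100 to 150 mm3, with 3 injections into the tumour 48 h apart in 50 µL of PBS, and tumours were taken 24 h after the last. Each group held 5 tumours from 5 mice. The labels name no genetic change in either group, all tumours came from the same cell line, and the question posed is how tumour gene expression differed after the agonist.

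Interferons act through paired receptor chains, each of which holds a Janus kinase inside the cell. Type I interferons are bound by Ifnar2, the high-affinity chain that carries Jak1, and by Ifnar1, which carries Tyk2, and the pair activates a transcription complex that holds Stat2 and Irf9. Interferon gamma is bound by Ifngr1, the ligand-binding chain with Jak1, which then recruits Ifngr2, the signal-transducing chain with Jak2. Il10rb is a shared chain that pairs with Il10ra for interleukin 10 and with Ifnlr1 for interferon lambda. All 5 belong to the class II cytokine receptor family. Ifnar2, Il10rb, Ifnar1 and Ifngr2 lie in that order on mouse chromosome 16, with Gm21970 listed between Ifnar2 and Il10rb and overlapping both, and Ifngr1 lies on chromosome 10, according to GENCODE M21.

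The sequence just upstream of the transcription start is shown for the 2 members whose fold changes lay farthest from 0, 1 in each direction, with motifs tied to interferon signalling or to general transcription. Of the 5 members, 4 matched the RefSeq promoter table on GRCm38.p6. The Ifnar2 stretch is chr16:91372533-91372782 and the Ifngr1 stretch is chr10:19591699-19591948, both on the plus strand and written 5′ to 3′. Capitals mark a GAS motif, the STAT-binding pattern TTCNNNGAA, in Ifnar2. Capitals mark GC boxes, GGGCGG or its reverse complement, in Ifngr1.
Ifnar2: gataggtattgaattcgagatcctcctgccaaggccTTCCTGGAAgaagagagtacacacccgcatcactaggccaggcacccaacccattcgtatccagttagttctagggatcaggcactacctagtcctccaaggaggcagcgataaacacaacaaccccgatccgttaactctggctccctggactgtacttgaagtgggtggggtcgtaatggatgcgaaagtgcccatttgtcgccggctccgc
Ifngr1: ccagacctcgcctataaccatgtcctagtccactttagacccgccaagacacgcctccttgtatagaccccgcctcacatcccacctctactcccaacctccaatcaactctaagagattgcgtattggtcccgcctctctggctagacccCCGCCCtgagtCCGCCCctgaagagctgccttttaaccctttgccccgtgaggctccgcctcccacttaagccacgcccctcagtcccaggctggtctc
The Ifnar2 stretch held 1 GAS motif and 0 GC boxes, with 54.0% G and C. The Ifngr1 stretch held 0 GAS motifs and 2 GC boxes, with 59.2% G and C. The stretches of Ifnar1 and Ifngr2 held 0 GAS motifs, with 2 and 4 GC boxes and 65.6% and 74.0% G and C. The interferon-stimulated response element, searched as GAAA, any 2 bases and GAAA again, was found in 0 of the 4 stretches. On both strands of the same 250 bases of 32851 promoters, 7.02% held the GAS pattern, 2.98% the response element and 32.7% a GC box, with a median of 52.4% G and C. Overlapping matches of 1 motif were each counted, no stretch held both a GAS motif and a GC box, and a match is a description of letters and not a site.

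Total counts per tumour ranged from 17931895 to 39842608, and each member had 349 to 5712 reads in a tumour. PBS 5 and SLR14 2 stood apart on the first principal component of log2 CPM (28.3% of the variance), at -58.1 and 42.1, against 8.15 to 15.5 in the other SLR14 tumours and -28.6 to 2.35 in the other PBS tumours. The renal and epithelial genes Krt8, Krt18, Pax8 and Cdh16 were measured in every tumour. The 8 listed RENCA genes summed to 5060 to 6740 CPM in SLR14 and 4650 to 5890 CPM in PBS tumours, with 5 fold changes positive and 3 negative. Vim alone averaged 2727 CPM in SLR14 and 2303 CPM in PBS tumours, so the sum is not a measure of tumour cell content. Cdh16 was lower in each SLR14 than in each PBS tumour (244 ± 40.9 CPM in SLR14 and 351 ± 36.0 CPM in PBS tumours, SD, n = 5 each, edgeR adjusted p = 0.0788). Epcam was low and fell (0.617 ± 0.502 CPM in SLR14 and 3.45 ± 1.62 CPM in PBS tumours, SD, n = 5 each, edgeR adjusted p = 0.0324). In edgeR's quasi-likelihood test of SLR14 against PBS over 15883 genes, 153 passed a Benjamini-Hochberg adjusted p of 0.05, which is 0.963% of those tested (0.674% higher and 0.29% lower). None of the 5 receptor subunits was among them, and none was among the genes called by DESeq2 (407) or limma voom. At an unadjusted edgeR p under 0.05 there were 2 members, Ifnar2 and Ifngr1, where 10.8% of all tested genes had such a p (5.4% higher and 5.43% lower). The groups did not overlap for 1 member, Ifngr1, where this held for 3.24% of tested genes (1.92% higher and 1.32% lower). The median log2 fold change was 0.06 over the members and -0.01 over all tested genes.

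Ifnar1, the type I chain that carries Tyk2, had 124, 125, 128, 126 and 122 CPM (read counts scaled to library size with TMM) in SLR14 tumours 1 to 5, against 116, 121, 114, 127 and 98.1 CPM in PBS tumours 1 to 5. The SLR14 tumours lay in a narrow band, with SLR14 3 just above the highest PBS tumour, PBS 4, and the other 4 inside the upper part of the PBS range, and PBS 5 was the lowest of all 10 tumours. The coefficient of variation of Ifnar1 CPM was 1.63% over SLR14 and 9.33% over PBS tumours, where counting error alone is 1.41% to 2.18% per SLR14 and 1.54% to 1.99% per PBS tumour. Ifnar1 averaged 125 ± 2.04 CPM in SLR14 and 115 ± 10.7 CPM in PBS tumours (SD, n = 5 each), a log2 fold change of 0.12 (SE 0.09, 95% interval -0.07 to 0.30, edgeR adjusted p = 0.629). Without PBS 5 the log2 fold change was 0.06 (edgeR adjusted p = 0.761).

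Ifnar2, the high-affinity type I chain that carries Jak1, had 72.5, 77.1, 69.9, 78.3 and 73.4 CPM in SLR14 tumours 1 to 5, against 54.6, 64.5, 63.4, 71.6 and 58.0 CPM in PBS tumours 1 to 5. Only SLR14 3 lay within the PBS range, below PBS 4, and each of the other SLR14 tumours was above every PBS tumour. The means were 74.2 ± 3.41 CPM in SLR14 and 62.4 ± 6.49 CPM in PBS tumours (SD, n = 5 each). The log2 fold change was 0.25 (SE 0.09, 95% interval 0.06 to 0.44), or 18.9% higher, and did not pass (edgeR adjusted p = 0.318). With each tumour left out in turn the edgeR adjusted p was 0.182 to 0.557. Ifnar2 gives rise to membrane and soluble forms by alternative splicing, and counts per gene cannot separate them. Its exons overlap those of Gm21970, a same-strand gene that also overlaps Il10rb, so reads of that stretch are uncertain for both.

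**Figure D1:**
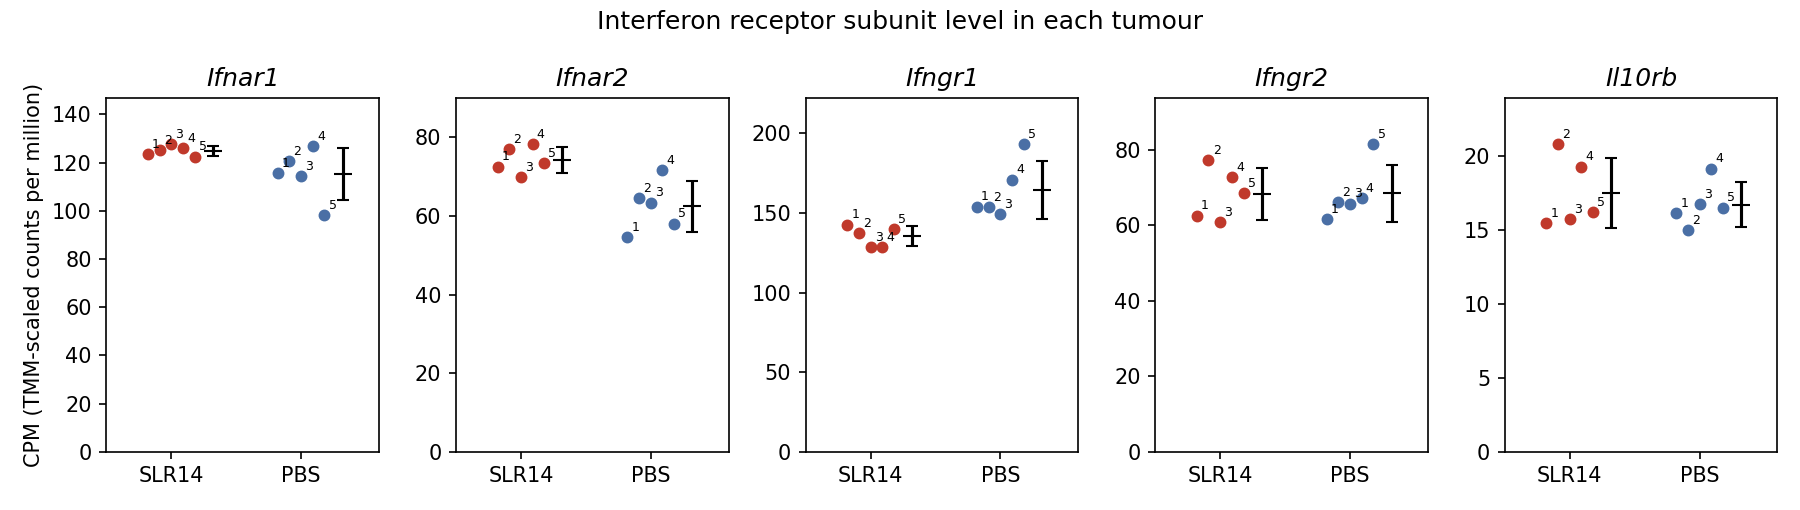
Points are tumours, numbered by replicate, with TMM-scaled CPM on a linear axis from 0. Bars beside them are the mean and SD of 5 tumours. Ifngr1 is the panel in which all 5 SLR14 tumours (129 to 143 CPM) lie below all 5 PBS tumours (149 to 193 CPM).

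Ifngr1, the ligand-binding chain for interferon gamma, was the member with the highest count level and the lowest fold change. It had 143, 137, 129, 129 and 140 CPM in SLR14 tumours 1 to 5, against 154, 153, 149, 171 and 193 CPM in PBS tumours 1 to 5. Every SLR14 tumour lay below every PBS tumour, also with the authors' normalized values, upper-quartile scaling and library totals. The means were 135 ± 6.48 CPM in SLR14 and 164 ± 18.2 CPM in PBS tumours (SD, n = 5 each). The log2 fold change was -0.28 (SE 0.09, 95% interval -0.48 to -0.08), or a change of -17.5%, and did not pass (edgeR adjusted p = 0.271). PBS 5 was the highest tumour, and without it the log2 fold change was -0.22 with a smaller error (SE 0.07, edgeR adjusted p = 0.165). DESeq2 gave an adjusted p of 0.116 for Ifngr1.

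In a bulk tumour, fewer cells of a type and less RNA per cell cannot be told apart, and Ifngr1 is expressed by most cell types. Macrophage and monocyte markers, 6 of 6 measured with none at 0 in any tumour, summed to 1800 to 2650 CPM in SLR14 and 2000 to 2350 CPM in PBS tumours, overlapping ranges. Dendritic cell markers (4 of 4 measured, each lower on average, none at 0) summed to 2.41 to 3.32 CPM in SLR14 and 6.92 to 9.61 CPM in PBS tumours. Neutrophil markers (5 of 5 measured, each higher on average, none at 0) summed to 16.1 to 46.5 CPM in SLR14 and 10.6 to 15.7 CPM in PBS tumours. Fibroblast markers (4 of 4 measured, each lower on average) summed to 359 to 1220 CPM in SLR14 and 551 to 2610 CPM in PBS tumours, overlapping ranges. Sums of T and NK, B cell, endothelium, erythroid, skeletal muscle and keratinocyte markers also overlapped. Of the T and NK markers (6 of 6 measured), 5 were higher on average, while Cd4, which made up most of that sum, was lower. Cd3e was low but higher in each SLR14 than in each PBS tumour (log2 fold change 2.57, SE 0.62, edgeR adjusted p = 0.0791). The log2 fold change was 2.15 for Cd8a (edgeR adjusted p = 0.111) and -0.58 for Cd4 (edgeR adjusted p = 0.483). Erythroid markers were highest in PBS 5 (160 CPM) and skeletal muscle markers lowest in SLR14 2 (1.01 CPM). Keratinocyte markers (2 of 3 measured) summed to 48.4 CPM in PBS 4 and 96.2 CPM in SLR14 5. In the other tumours that sum was 0.041 to 1.16 CPM. The dendritic sum separated the groups in the same direction as Ifngr1, and the neutrophil sum in the opposite direction. The part of any of these cell types in the Ifngr1 values was not tested.

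Ifngr2, the signal-transducing chain for interferon gamma, had 62.6, 77.3, 60.8, 72.9 and 68.5 CPM in SLR14 tumours 1 to 5, against 61.6, 66.2, 65.8, 67.3 and 81.6 CPM in PBS tumours 1 to 5. The ranges overlapped almost fully, with PBS 5 the highest tumour and SLR14 2 next. The means were 68.4 ± 6.88 CPM in SLR14 and 68.5 ± 7.61 CPM in PBS tumours (SD, n = 5 each). The log2 fold change was -0.0021 (SE 0.10, 95% interval -0.22 to 0.22, edgeR adjusted p = 0.994), so a difference of 14.1% lower to 16.1% higher lies within the interval. The sign of this value was positive in 8 of 19 alternative fits.

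Il10rb, the chain shared by the receptors for interleukin 10 and interferon lambda, had 15.5, 20.8, 15.7, 19.3 and 16.2 CPM in SLR14 tumours 1 to 5, against 16.1, 14.9, 16.7, 19.1 and 16.5 CPM in PBS tumours 1 to 5. SLR14 2, SLR14 4 and PBS 4 were high and the other tumours of both groups lay close together. The means were 17.5 ± 2.39 CPM in SLR14 and 16.7 ± 1.53 CPM in PBS tumours (SD, n = 5 each), a log2 fold change of 0.06 (SE 0.11, 95% interval -0.18 to 0.31, edgeR adjusted p = 0.836). Without SLR14 2 the log2 fold change was -0.0016. Il10rb had the fewest reads of the members, 349 to 620 per SLR14 and 426 to 639 per PBS tumour, and a counting error of 3.96% to 5.35%, which covers counting alone since the reads carry no molecular identifiers that the labels name.

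**Figure D2:**
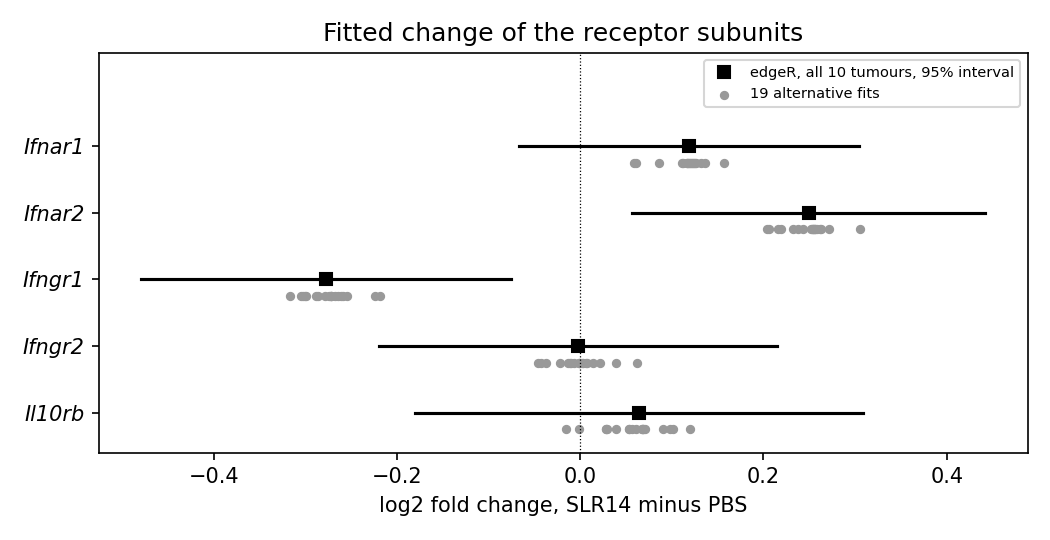
Squares are edgeR log2 fold changes of SLR14 minus PBS over all 10 tumours with 95% intervals. Grey points are 19 alternative fits per gene. All fits for Ifnar2 (0.20 to 0.31) and Ifnar1 lie above 0 and all fits for Ifngr1 (-0.32 to -0.22) below it, while those for Ifngr2 and Il10rb lie on either side.

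The members differed from each other more in level than in change. CPM values do not compare genes of different length, so levels were set per kilobase of annotated exons (RPKM, from TMM-scaled counts and GENCODE M21 lengths). Ifngr1 was the most abundant, at 47.6 ± 2.28 RPKM in SLR14 and 57.7 ± 6.40 RPKM in PBS tumours (SD, n = 5 each). Ifnar2 was at 22.3 ± 1.02 RPKM in SLR14 and 18.8 ± 1.95 RPKM in PBS tumours. Ifnar1 was at 21.0 ± 0.344 RPKM in SLR14 and 19.4 ± 1.81 RPKM in PBS tumours, and Ifngr2 at 18.2 ± 1.83 RPKM in SLR14 and 18.2 ± 2.02 RPKM in PBS tumours. Il10rb was the lowest, at 4.59 ± 0.626 RPKM in SLR14 and 4.38 ± 0.401 RPKM in PBS tumours. Ranges over tumours separated Ifngr1 from the 3 middle genes and these from Il10rb in either group. Ifnar1, Ifnar2 and Ifngr2 overlapped in PBS tumours (16.5 to 21.4, 16.4 to 21.5 and 16.4 to 21.6 RPKM), so their order is not set by these data. In SLR14 tumours Ifnar1 (20.6 to 21.5 RPKM) and Ifnar2 (21.0 to 23.5 RPKM) overlapped, and Ifngr2 (16.1 to 20.5 RPKM) lay just below them. With the length of the longest transcript, Ifnar1 came second at 32 ± 0.522 RPKM in SLR14 and 29.5 ± 2.75 RPKM in PBS tumours, above Ifnar2 at 24.4 ± 1.12 RPKM in SLR14 and 20.5 ± 2.13 RPKM in PBS tumours, while Ifngr1 remained the highest and Il10rb the lowest. Which transcripts these tumours used was not analysed here.

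**Figure D3:**
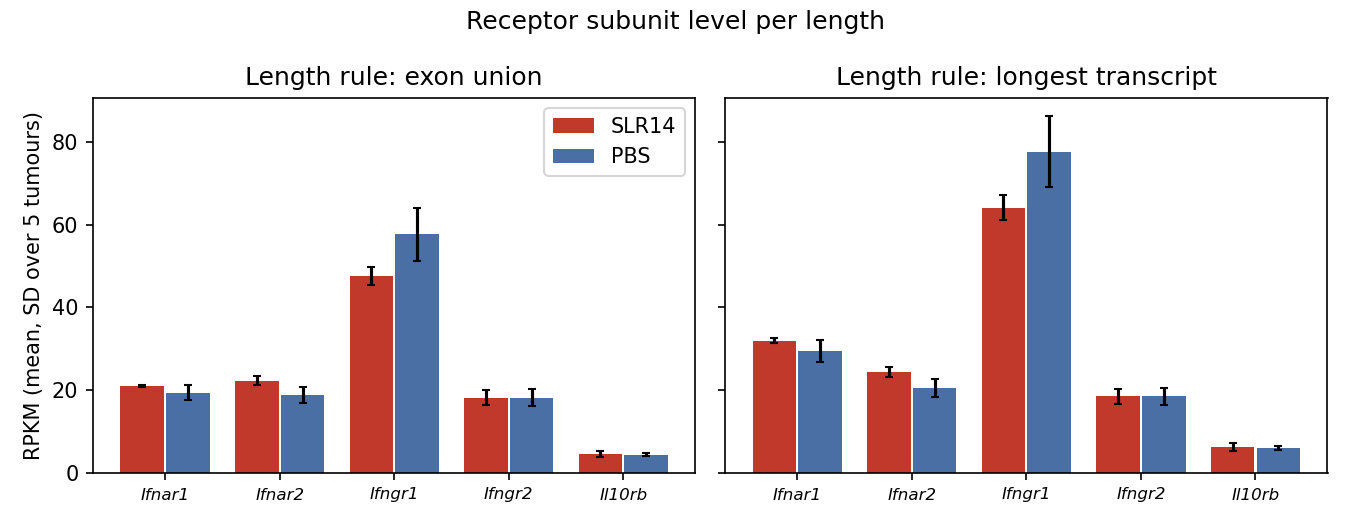
Bars are mean RPKM of 5 tumours from 0 with SD, SLR14 left of PBS, with the summed exon length (left) and the length of the longest transcript (right). Ifngr1 is highest and Il10rb lowest under both lengths, and the order of Ifnar1 and Ifnar2 in SLR14 tumours differs between the panels.

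The spread of the members between tumours was small against that of all tested genes. The members were not set against genes of like level. The biological coefficient of variation fitted by edgeR was 11.1% for Ifnar1, 11.3% for Ifnar2, 11.9% for Ifngr1, 12.4% for Ifngr2 and 13.5% for Il10rb, where the common value over all genes was 0.190 as a fraction. Ifnar1 was at the 6.01 percentile of this measure among tested genes and Il10rb at the 24.7 percentile. By CPM, Ifngr1 stood at the 89.9 percentile, Ifnar1 at the 86.8 percentile and Il10rb at the 46.3 percentile.

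Because receptor chains work in pairs, their counts were also set against each other within each tumour, a ratio that does not depend on library scaling. In a bulk tumour the chains of a pair need not come from the same cells, so the ratio does not measure pairing. No p is given, since the genes were chosen with earlier results known. The Ifngr1 to Ifngr2 count ratio was 2.28, 1.78, 2.12, 1.76 and 2.04 in SLR14 tumours 1 to 5, against 2.50, 2.32, 2.27, 2.54 and 2.37 in PBS tumours 1 to 5. It averaged 2.00 ± 0.223 in SLR14 and 2.40 ± 0.117 in PBS tumours (SD, n = 5 each). The groups overlapped by 1 tumour, SLR14 1, which was just above PBS 3. The mean log2 ratio was lower by a difference of -0.27 in SLR14 tumours, between -0.32 and -0.23 with each tumour left out. PBS 5, high in both chains, had a ratio in the middle of its group.

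The Ifnar1 to Ifnar2 count ratio was 1.70, 1.62, 1.83, 1.61 and 1.67 in SLR14 tumours 1 to 5, against 2.12, 1.87, 1.80, 1.77 and 1.69 in PBS tumours 1 to 5. It averaged 1.69 ± 0.086 in SLR14 and 1.85 ± 0.162 in PBS tumours (SD, n = 5 each), and the groups overlapped. The log2 difference of -0.13 stands against an SD of 0.07 over SLR14 and 0.12 over PBS tumours, and PBS 1 was the highest tumour. The Il10rb to Il10ra count ratio was 0.832 ± 0.168 in SLR14 and 0.720 ± 0.078 in PBS tumours (SD, n = 5 each), with ranges of 0.617 to 1.05 in SLR14 and 0.623 to 0.813 in PBS tumours. The log2 difference of 0.19 was larger than the SD over PBS tumours (0.16) and smaller than that over SLR14 tumours (0.30), the groups overlapped, and SLR14 2 and SLR14 5 were the extremes of all 10 tumours.

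**Figure D4:**
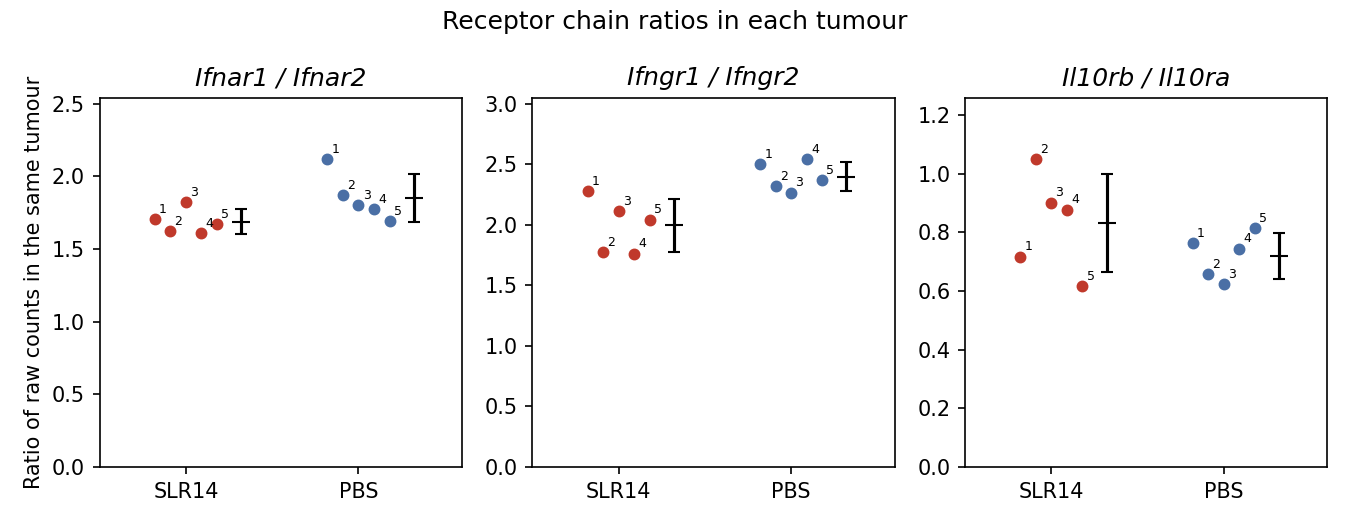
Points are tumours, numbered by replicate, with the ratio of raw counts of 2 receptor chains in the same tumour. Bars are the mean and SD of 5 tumours. The Ifngr1 to Ifngr2 ratio is 1.76 to 2.28 in SLR14 and 2.27 to 2.54 in PBS tumours.

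Of 7 other class II cytokine receptors listed, 5 were tested and 0 passed in edgeR. At an unadjusted p under 0.05 there was 1, Il22ra1, the interleukin 22 receptor chain that pairs with Il10rb. Over all tested genes 10.8% had such a p and 0.963% passed. Il22ra1 had 2.91, 2.62, 3.30, 2.96 and 3.94 CPM in SLR14 tumours 1 to 5, against 2.13, 2.00, 1.89, 2.42 and 1.51 CPM in PBS tumours 1 to 5. All SLR14 tumours were above all PBS tumours, where 1.92% of all tested genes were higher without overlap. The log2 fold change of Il22ra1 was 0.67 (SE 0.19, edgeR adjusted p = 0.149). DESeq2 called it (adjusted p = 0.0347), limma voom did not. Il10ra, the ligand-binding interleukin 10 receptor chain of blood cells, averaged 21.4 ± 3.24 CPM in SLR14 and 23.3 ± 2.83 CPM in PBS tumours (edgeR adjusted p = 0.716). Ifnlr1, the interferon lambda chain, averaged 20.7 ± 0.929 CPM in SLR14 and 19.8 ± 1.56 CPM in PBS tumours (edgeR adjusted p = 0.791). F3, tissue factor, had a log2 fold change of 0.26 (edgeR adjusted p = 0.711).

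None of the 21 interferon ligand genes looked for had a row in the count table used here, by symbol or by gene identifier, and they were not analysed here. These are Ifna1, Ifna2, Ifna4, Ifna5, Ifna6, Ifna7, Ifna9, Ifna11, Ifna12, Ifna13, Ifna14, Ifna15, Ifna16, Ifnab, Ifnb1, Ifne, Ifnk, Ifnz, Ifng, Ifnl2 and Ifnl3. The same holds for the 5 ligands of the interleukin 10 family, Il10, Il19, Il20, Il22 and Il24. Among the 18603 genes that do have a row, none fell short of 5 on the authors' normalized scale in more than 7 of the 10 tumours. A gene without a row therefore has no value here, and its level cannot be given as 0.

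Of 17 genes of receptor-proximal signalling, 3 rose and 0 fell, with a median log2 fold change of 0.20. Over all tested genes 0.674% were called higher, and the signalling list was chosen with earlier results of these tumours known. The risers were Stat2, Irf9 and Usp18. Stat2, a part with Irf9 of the type I interferon transcription complex, had 163 to 185 CPM in SLR14 tumours, with a median of 170 CPM, and 72.5 to 113 CPM in PBS tumours, with a median of 105 CPM. Its log2 fold change was 0.81 (SE 0.12, edgeR adjusted p = 0.00482). Irf9 had 43.1 to 51.1 CPM in SLR14 and 28.5 to 37.5 CPM in PBS tumours (log2 fold change 0.52, SE 0.09, edgeR adjusted p = 0.0214). Usp18, an Ifnar2-binding protease that damps the receptor, had 35.0 to 55.6 CPM in SLR14 and 20.8 to 31.9 CPM in PBS tumours (log2 fold change 0.81, SE 0.15, edgeR adjusted p = 0.0241). For these 3 genes the groups did not overlap, where 1.92% of all tested genes were higher without overlap.

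Stat2 was called in each of 19 alternative fits (adjusted p at most 0.0275). Irf9 lost its edgeR call when PBS 1, PBS 2, PBS 3, SLR14 1, SLR14 3 or SLR14 5 was left out, and Usp18 when any of the first 5 of these was left out. Their adjusted p over the alternatives that ended the call was 0.0524 to 0.0954 for Irf9 and 0.0642 to 0.1 for Usp18, which limma on the authors' normalized values did not call either. The count of 3 was 1 without PBS 1, PBS 2, PBS 3, SLR14 1 or SLR14 3.

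The kinases that sit on the receptor chains did not pass. Jak1 averaged 373 ± 46.7 CPM in SLR14 and 361 ± 60.0 CPM in PBS tumours (SD, n = 5 each, edgeR adjusted p = 0.905). Tyk2 averaged 70.8 ± 3.70 CPM in SLR14 and 63.5 ± 11.7 CPM in PBS tumours (edgeR adjusted p = 0.653), and Jak2 34.1 ± 3.48 CPM in SLR14 and 35.0 ± 8.12 CPM in PBS tumours (edgeR adjusted p = 0.934). Socs1, a feedback inhibitor of Janus kinases, averaged 2.79 ± 0.692 CPM in SLR14 and 1.78 ± 0.427 CPM in PBS tumours (edgeR adjusted p = 0.300).

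Genes of receptor turnover and trafficking showed no calls. Of 12 tested, 0 passed in edgeR, and 0 had an unadjusted p under 0.05, with 4 positive and 8 negative fold changes. Over all tested genes 0.963% passed, 10.8% had such a p and 48% had a positive fold change. The smallest p belonged to Btrc, the substrate receptor of the ubiquitin ligase that targets Ifnar1 for degradation, at 19.2 ± 1.11 CPM in SLR14 and 21.4 ± 1.18 CPM in PBS tumours (SD, n = 5 each, edgeR adjusted p = 0.533). Next was Hgs, a sorting protein of the endosome, with a log2 fold change of 0.19 (edgeR adjusted p = 0.556).

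Genes listed as interferon response targets did change. Whether this came about through the receptors was not tested, and no interferon ligand looked for had a row. Of 15 targets listed, 10 rose, 0 fell and 5 did not pass, with a median log2 fold change of 1.39. The share called higher over all tested genes was 0.674%. The risers included Irf7, an amplifier of type I interferon (log2 fold change 2.46, SE 0.23, edgeR adjusted p = 0.000396), the chemokine Cxcl10 (2.22, SE 0.33, edgeR adjusted p = 0.00492) and the tetherin gene Bst2 (1.39, SE 0.18, edgeR adjusted p = 0.00205). The others were Ifit1, Ifit3, Mx1, Oas1a, Oasl2, Rsad2 and Gbp2, at log2 fold changes of 0.84 to 1.78. The list was chosen with earlier results of these tumours known and is not independent evidence of its direction. Those that did not pass were Isg15, Cxcl9, Socs1, Ciita and Irf1. Isg15, which is attached to proteins as ubiquitin is, averaged 75.5 ± 18.7 CPM in SLR14 and 43.1 ± 15.0 CPM in PBS tumours (log2 fold change 0.81, edgeR adjusted p = 0.122). The chemokine Cxcl9 had a log2 fold change of 1.53 (edgeR adjusted p = 0.337). Ciita, the activator of class II antigen presentation genes, was the target with a negative fold change, -0.60 (edgeR adjusted p = 0.661). Irf1, an early target of interferon gamma, averaged 54.8 ± 4.57 CPM in SLR14 and 52.1 ± 4.37 CPM in PBS tumours (edgeR adjusted p = 0.766). The count of 10 was 6 without PBS 1, PBS 3, SLR14 1 or SLR14 3, and Irf7, Ifit1, Oasl2, Rsad2, Bst2 and Cxcl10 were called in each of 19 alternative fits.

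**Figure D5:**
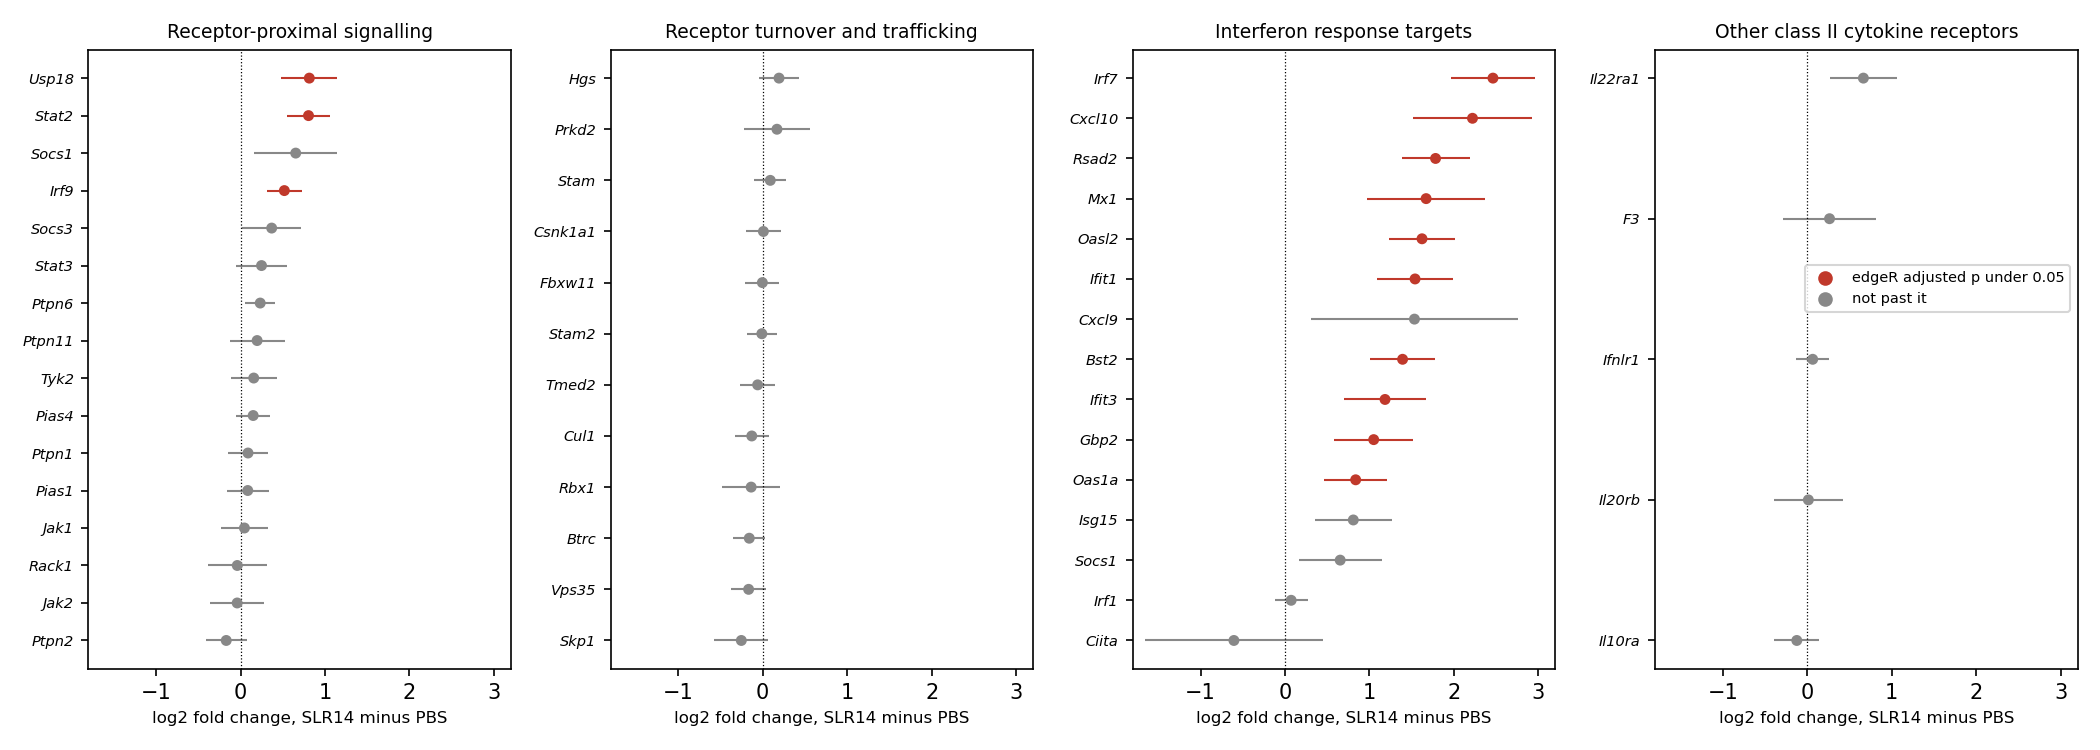
Points are edgeR log2 fold changes of SLR14 minus PBS with 95% intervals for the genes reported from 4 lists, red where the adjusted p was under 0.05. Stat2, Irf9 and Usp18 are red in the signalling panel, 10 of 15 genes are red in the target panel, and none is red among trafficking genes and other class II receptors.

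The genes around the receptor loci gave no call in edgeR, where 0.963% of all tested genes were called. Of the 6 genes flanking the chromosome 16 cluster, 3 on each side, 4 were tested. Tmem50b, next to Ifngr2, had a log2 fold change of 0.13 (SE 0.10, edgeR adjusted p = 0.630), Gart -0.07 (edgeR adjusted p = 0.832), Dnajc28 -0.17 (edgeR adjusted p = 0.875) and 4932438H23Rik -0.25 (edgeR adjusted p = 0.833). Of the 6 genes flanking Ifngr1, 1 was tested, Tnfaip3, an inhibitor of inflammatory signalling, at 36.4 ± 7.22 CPM in SLR14 and 29.7 ± 10.1 CPM in PBS tumours (SD, n = 5 each, edgeR adjusted p = 0.632).

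The genes whose variation within groups was most like that of each member were found by the Pearson r of log2 CPM, taken as deviations from the group mean over 10 tumours, among 12124 genes. These are the highest of many values, the points share libraries, and no p is given. For Ifnar1 they were Tcf3 (r 0.987, Spearman rho 0.903), Gcc1 (r 0.974, rho 0.915) and Col6a1 (r 0.973, rho 0.673). Without PBS 5 and PBS 4, the tumours farthest from the median of Ifnar1, r was 0.803, 0.691 and 0.643, so these values rest in part on those tumours. For Ifnar2 they included Wars1 (r 0.938, rho 0.927) and Fbxo46 (r 0.899, rho 0.915), with r of 0.936 and 0.912 without PBS 4 and PBS 1. For Ifngr1 they were Pon2 (r 0.965, rho 0.867), Stmp1 (r 0.939, rho 0.903) and Mzt2 (r 0.934, rho 0.806), with r of 0.893, 0.875 and 0.885 without PBS 5 and PBS 3. For Ifngr2 they were Slc17a1 (r 0.966, rho 0.952), Rnh1 (r 0.966, rho 0.988) and Rplp2 (r 0.964, rho 0.915), with r of 0.956, 0.933 and 0.905 without PBS 5 and SLR14 2. For Il10rb they were Mcoln1 (r 0.957, rho 0.927), Mif (r 0.956, rho 0.939) and Zfp787 (r 0.929, rho 0.915), with r of 0.886, 0.916 and 0.912 without SLR14 2 and PBS 4. The 5 members shared none of these genes.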

How the data were processed

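Polyadenylated RNA of 10 tumours was sequenced after ribosomal depletion and oligo(dT) enrichment, per the labels' protocols. The mm39 build, STAR, Trim Galore 0.6.7 and DESeq2 1.36.0 are named in the submitters' processing notes. Which annotation, counting program and strand setting were used is not given in the sources used here. Overlapping and antisense genes cannot be told apart. The authors deposited raw counts per gene and a normalized signal. In the values, the signal is each count over a single factor for its sample (within 0.127% of the median-of-ratios factor). Groups and replicate numbers came from the sample titles.

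Counts were filtered with filterByExpr (minimum count 10, 15883 genes kept), scaled with TMM and tested with edgeR 4.0.16 (glmQLFit, glmQLFTest) in R 4.3.3, SLR14 against PBS, with Benjamini-Hochberg adjustment over all tested genes. The fit was run on simulated counts in which all genes shared the same dispersion, so this does not show how it behaves at the spread of these tumours. Standard errors are the absolute log2 fold change over the square root of F. Alternatives were DESeq2 1.42.0, limma 3.58.1 (voom, and log2 of the authors' normalized values plus 1), other scalings and filters, a replicate block and each tumour left out. Lengths and neighbours came from GENCODE M21 on GRCm38, which 17797 of 18603 identifiers matched, so gene coordinates on the authors' build are not given. Members and lists were chosen with earlier results of these data known. Named genes were the members, the 3 genes most like each, list genes past the threshold (otherwise the 2 with the smallest p), receptor partners and mediators, and neighbours. Values of 2 of these genes are not reported here, though counts of genes, groups and alternatives include them. No library was a duplicate of another of its group (chi-square per degree of freedom at least 8.15 over 20 pairs), and p-values measure the spread between tumours.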

Additional observations from a re-analysis of the deposited data

Results flagged for a closer look

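Among 104 groups of 5 tumours checked, 9 held a tumour whose gap to the next was large against the range of its group (Dixon's ratio above 0.710), and chance flags about 1 in 20 groups. In PBS 5, Ifngr2 was at 81.6 CPM, against 61.6 to 67.3 CPM in the other PBS tumours (ratio 0.715). Without PBS 5 the log2 fold change of Ifngr2 was 0.06. In the same tumour Slc17a1 was at 22 CPM, against 14.6 to 16.4 CPM in the other PBS tumours (0.760), and Rnh1 at 967 CPM, against 568 to 665 CPM (0.757). Both were picked for varying like Ifngr2 in these tumours, so their flags are not separate from its flag and the chance rate does not apply to them. Oas1a was also high in PBS 5, at 52.7 CPM against 26.2 to 33.4 CPM (0.730). Tyk2, the kinase on Ifnar1, was low in PBS 5, at 42.7 CPM against 66.9 to 69.8 CPM in the other PBS tumours (0.894). Hgs was low there too, at 75.9 CPM against 108 to 113 CPM (0.874). In PBS 4, Mif was at 284 CPM against 195 to 210 CPM (0.831). Mif was picked for varying like Il10rb, which was also highest of the PBS tumours in PBS 4. Jak2 was high in SLR14 2, at 40.2 CPM against 31.3 to 33.6 CPM in the other SLR14 tumours (0.741).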

How the results depend on the processing

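Ifnar1, Ifnar2 and Ifngr1 kept their sign in 19 of 19 alternative fits, and none of the 5 members was called in any of them. With each tumour left out the log2 fold change was 0.06 to 0.16 for Ifnar1, 0.21 to 0.31 for Ifnar2, -0.31 to -0.22 for Ifngr1, -0.0459 to 0.062 for Ifngr2 and -0.00163 to 0.12 for Il10rb. Ifngr2 changed sign with DESeq2 size factors (0.0019), the DESeq2 test (0.00675), limma on the authors' normalized values (0.0077) and no low-count filter (0.00308). Leaving out PBS 5 and SLR14 2 together, chosen after seeing the data, gave 0.014 for Ifngr2, -0.0156 for Il10rb and -0.131 for Jak1. With single tumours left out, Jak1 ranged from -0.0517 to 0.0986, Jak2 from -0.159 to 0.0337, Dnajc28 from -0.475 to 0.0645 and Gart from -0.143 to 0.00621, and Jak2 was 0.000344 with limma on the normalized values. The cause was not tested. The number of genes called was 407 with DESeq2 (251 higher, 156 lower), 100 with limma on the normalized values (63 higher) and 78 with the replicate block (51 higher, 27 lower), against 153 (107 higher, 46 lower). With each tumour left out it was 69 to 194 (44 to 123 higher, 25 to 71 lower), and it was below 100 without PBS 1, PBS 3, SLR14 1, SLR14 3 or SLR14 4. Without PBS 5 and SLR14 2 together 74 were lower. Signalling genes that rose numbered 1 to 3 and targets 6 to 10 with each tumour left out. With limma on the normalized values 6 targets rose. With the replicate block 1 signalling gene was called and Irf9 and Usp18 were not. Same-numbered tumours did not deviate together (correlation of deviations -0.203 to 0.109, 0 of 5 SLR14 tumours closest to the PBS tumour of its own number), so the numbers are not taken as pairs. With the longest transcript as length, the level was 32 RPKM in SLR14 and 29.5 RPKM in PBS tumours for Ifnar1, 24.4 RPKM in SLR14 tumours for Ifnar2, 64.1 RPKM in SLR14 and 77.7 RPKM in PBS tumours for Ifngr1, and 6.27 RPKM in SLR14 and 5.98 RPKM in PBS tumours for Il10rb. The ratio differences kept their sign with each tumour left out, at -0.16 to -0.08 for Ifnar1 to Ifnar2 and 0.10 to 0.29 for Il10rb to Il10ra. Il10rb, with the fewest reads, had the widest interval of log2 fold change among the members, -11.8% to 23.9% as a change in level.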
